A study of Rattus norvegicus with 10 samples.

Results

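The genes of the major histocompatibility complex (MHC) class II pathway were measured in the mammary glands of 2 rat strains treated with 17β-estradiol (E2). The 9 genes are *RT1-Ba*, *RT1-Bb*, *RT1-Da*, *RT1-Db1*, *RT1-DMa*, *RT1-DMb*, *Cd74*, *Ciita* and *Ifi30*, out of 14217 genes named on the array. Each probe set annotated to a single one of these symbols, current or former, was kept, which gave 15 probe sets of the 31042 tested. A probe set is the group of short oligonucleotides on the array that are summarized to 1 value. It can match more than 1 gene, and 436 probe sets carried several symbols. The arrays were Affymetrix Rat Genome 230 2.0, with 1 array per rat, and the values are log2 GCRMA expression. The 5 ACI rats (labelled ACI/SegHsd) and the 5 BN rats (labelled Brown Norway) were ovary-intact females that received subcutaneous E2 implants at 9 weeks of age and carried them for 12 weeks, before palpable mammary cancer. The series holds no untreated rats, so E2 treatment is shared by all 10 animals and only the strains are compared. ACI rats are susceptible and BN rats resistant to E2-induced mammary cancer. The whole gland was extracted, with epithelium, fat pad, vessels and resident leukocytes together.

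MHC class II molecules are surface heterodimers that present peptides from endocytosed proteins to CD4 T cells. In the rat, *RT1-Ba* and *RT1-Bb* encode the alpha and beta chains of RT1-B, and *RT1-Da* and *RT1-Db1* those of RT1-D. *Cd74* encodes the invariant chain, which holds the peptide groove until the dimer reaches the endosome, *RT1-DMa* and *RT1-DMb* encode the DM dimer that exchanges the remaining invariant chain fragment for peptide, and *Ifi30* encodes a lysosomal thiol reductase that unfolds disulfide-bonded antigens. *Ciita* encodes the transactivator that class II promoters need, which is made constitutively by B cells and dendritic cells and is induced by interferon gamma in other cells. ACI and BN rats carry different haplotypes at the RT1 locus, and class II genes are among the most polymorphic genes of the genome. A probe set designed on the sequence of 1 haplotype can hybridize poorly to the transcript of the other, so on the array a difference in level and a difference in sequence cannot be told apart.

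Class II promoters hold an X box, bound by the RFX complex, and a Y box, bound by NF-Y, and Ciita acts through the proteins assembled on them. The RefSeq promoter table (assembly GRCr8, itself made from a BN rat) held 7 of the 9 genes, all but *Ciita* and *RT1-DMb*. In the 250 bases before each start, the Y box was searched as ATTGG and the X box as GNNACNNAT, on both strands, and a pair as X followed on the same strand by Y with 10 to 40 bases between them. A pair was found in 4 of the 7 promoters (*RT1-Da*, *RT1-Db1*, *RT1-Bb* and *RT1-DMa*) and in 240 of all 33469 promoters searched (0.717%). A Y box was found in 6 of the 7, all but *Ifi30*, and in 34% of all promoters, and an X box in 4 of the 7 and in 23% of all. The stretches with the boxes are shown because they are the letters that set these genes apart from most promoters, with that of *RT1-Ba*, where these letters gave a Y box but no X box, for comparison. Each runs 5′ to 3′ on the gene's strand, with the X and then the Y box in capitals. The positions on GRCr8 are chr20:4515303-4515390 (plus strand) for *RT1-Da*, chr20:4560218-4560304 (minus) for *RT1-Db1*, chr20:4576945-4577038 (plus) for *RT1-Ba*, chr20:4604155-4604241 (minus) for *RT1-Bb* and chr20:4712375-4712462 (minus) for *RT1-DMa*, each upstream of the annotated gene.
RT1-Da: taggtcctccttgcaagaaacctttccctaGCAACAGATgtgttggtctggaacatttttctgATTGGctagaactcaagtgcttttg
RT1-Db1: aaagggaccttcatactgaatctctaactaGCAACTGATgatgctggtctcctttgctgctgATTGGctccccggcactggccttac
RT1-Bb: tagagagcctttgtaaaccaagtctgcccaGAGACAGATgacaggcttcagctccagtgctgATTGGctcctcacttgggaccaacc
RT1-DMa: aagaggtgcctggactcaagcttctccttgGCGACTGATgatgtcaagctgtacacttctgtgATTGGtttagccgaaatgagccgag
RT1-Ba: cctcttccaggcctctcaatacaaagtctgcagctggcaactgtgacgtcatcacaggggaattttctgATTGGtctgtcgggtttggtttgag
Between the X and Y boxes lay 24 bases in *RT1-Da* and *RT1-DMa* and 23 in *RT1-Db1* and *RT1-Bb*. A match of letters is a description of the reference sequence. The corresponding ACI sequence was not analysed here.

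Differences are given as ACI minus BN on the log2 scale, with the standard error (SE) of the limma fit, and a probe set was called at a Benjamini-Hochberg adjusted p under 0.05 over all 31042 probe sets. Of these, 12.7% were called in either direction, 5.87% higher in BN and 6.79% higher in ACI, and in 12.3% the values of the strains did not overlap. The lowest value in the table was 2.23, and a strain with all rats under 4 is described as near background. Markers of luminal epithelium were present in every gland (mean of 12 markers, 9.69 to 10.02 in ACI and 8.96 to 9.77 in BN), and adipocyte markers likewise (8.98 to 10.13 and 9.42 to 10.43). The mean of 10 skeletal muscle markers ranged from 7.16 to 11.64 in ACI and from 3.73 to 10.59 in BN rats.

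The 4 probe sets of *RT1-Ba* (chr20:4577057-4581650, GRCr8) gave 3 different answers. Probe set 1370822_at, which had the highest mean, read 10.58, 10.42, 10.57, 10.44 and 9.56 in ACI rats 1 to 5 and 10.42, 10.42, 10.27, 10.42 and 10.42 in BN rats 1 to 5. The strains overlapped, and the difference of -0.08 (SE 0.189, 95% interval -0.51 to 0.36) was not called (adjusted p = 0.959). The same value on 4 BN arrays is rare, since of 5054 probe sets whose mean was 8 or more, 3 (0.0594%) had 4 or 5 BN arrays at a single value.

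Probe set 1377334_at of *RT1-Ba* was detected in ACI alone. Its values were 8.90, 9.07, 9.06, 9.10 and 8.84 in ACI and 3.02, 3.02, 3.02, 3.04 and 3.32 in BN rats. All BN rats were near background, and the level was at least 31.9-fold higher in ACI, counting each BN rat at the floor of 4 (fitted difference 5.91, SE 0.0768, adjusted p = 2.55e-09).

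The other two probe sets of *RT1-Ba* went the opposite way. Probe set 1381593_x_at read 2.34 in each of the 5 ACI rats and 13.09, 12.83, 12.56, 12.25 and 12.63 in the BN rats, at least 408-fold higher in BN (fitted difference -10.33, SE 0.137, adjusted p = 2.55e-09). Probe set 1392334_at read 2.46, 2.70, 2.54, 2.54 and 2.54 in ACI and 13.11, 12.94, 12.64, 12.37 and 12.76 in BN rats, at least 435-fold higher in BN (-10.21, SE 0.129, adjusted p = 2.55e-09). All ACI rats were near background and all BN rats high on both. According to the platform annotation, 1381593_x_at and 1392334_at share a target sequence, and on no array were they more than 0.36 apart, so they are not independent measurements.

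These probe sets were read on the same array from the same RNA, so the disagreement lies between probe sets of 1 gene within each rat. It was known when the genes were chosen and is given as a description, and no direction is given for *RT1-Ba* as a gene. Averaging the 4 probe sets would give -3.68 (SE 0.0882, adjusted p = 1.62e-07 over gene means), a value that no single probe set of the gene showed.

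**Figure D1:**
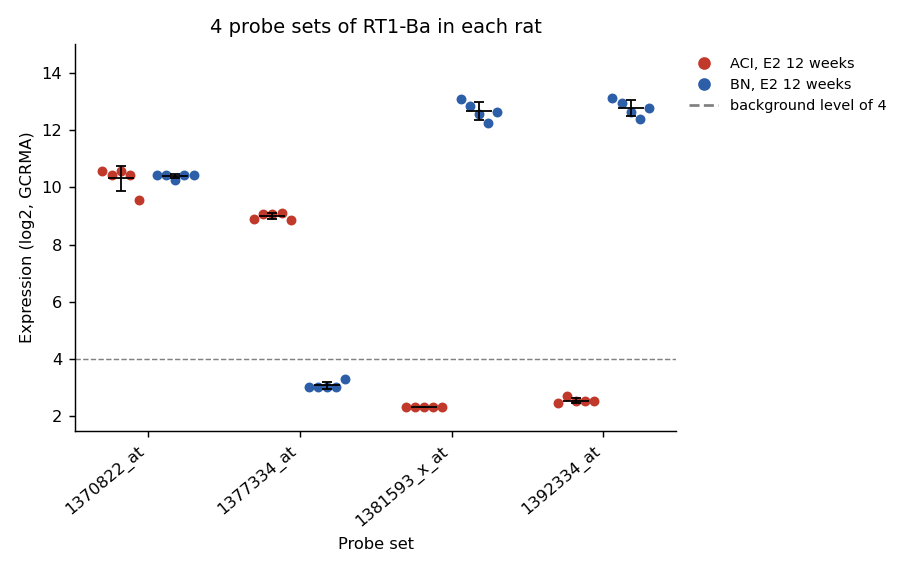
Log2 GCRMA expression (vertical axis) of the 4 probe sets of RT1-Ba (horizontal axis), with 1 point per rat, ACI in red and BN in blue, and bars for the mean and SD of 5 rats. On 1370822_at the strains overlap near 10.4, on 1377334_at the BN rats lie under the dashed background level of 4, and on the remaining 2 probe sets the ACI rats do.

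*RT1-Bb* (chr20:4598475-4604118), the beta chain of RT1-B, was not called. It read 11.74, 11.62, 11.56, 11.70 and 11.22 in ACI and 11.54, 10.96, 10.94, 11.52 and 11.51 in BN rats on 1371033_at. The ACI values were on average higher, but ACI rat 5 lay below 3 of the BN rats, and the difference of 0.27 had a 95% interval of -0.10 to 0.65 (SE 0.164, adjusted p = 0.381). The other probe set of *RT1-Bb*, 1371065_at, read 2.23 or 2.24 on every array, near background throughout.

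*RT1-Da* (chr20:4515393-4520387), the alpha chain of RT1-D, was the structural class II gene outside *RT1-Ba* that was called. Its values on 1370883_at were 13.02, 12.95, 12.86, 12.93 and 12.76 in ACI and 13.81, 13.36, 13.10, 13.20 and 13.45 in BN rats. The lowest BN rat lay above the highest ACI rat, and expression was 1.39-fold higher in BN (difference -0.48, SE 0.127, 95% interval -0.77 to -0.19, adjusted p = 0.042). The adjusted p passed 0.05, at 0.0667 to 0.0944, when any of the 5 ACI rats, BN rat 2 or BN rat 5 was left out, and it was 0.0251 to 0.048 without BN rat 1, 3 or 4. As whole glands were extracted, fewer cells of a type and less RNA per cell cannot be told apart. A difference in sequence between the RT1 haplotypes at this probe set cannot be told from a difference in level either.

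*RT1-Db1* (chr20:4550594-4560182), the beta chain of RT1-D, was measured by 2 probe sets that agreed in direction. On 1370383_s_at, which had the higher mean, it read 11.17, 11.21, 11.39, 11.14 and 10.77 in ACI and 11.86, 10.80, 11.22, 11.65 and 11.78 in BN rats (difference -0.33, SE 0.218, 95% interval -0.82 to 0.17, adjusted p = 0.443). On 1370382_at it read 7.28, 7.55, 7.51, 7.52 and 7.43 in ACI and 7.74, 7.13, 7.18, 8.19 and 8.47 in BN rats (-0.28, SE 0.264, 95% interval -0.89 to 0.32, adjusted p = 0.596). On both, BN rats 1, 4 and 5 lay above all ACI rats, while BN rat 2 lay among or below them, and neither probe set was called. The BN rats spread more widely than the ACI rats on 1370382_at (SD 0.596 and 0.109). The neighbouring gene *RT1-Db2* had no probe set of its own, and whether 1370383_s_at also reads it was not tested.

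The invariant chain gene *Cd74* (chr18:56527071-56536406) was abundant in every gland. It read 13.28, 13.17, 13.05, 12.96 and 12.41 in ACI and 13.59, 13.20, 13.17, 13.53 and 13.81 in BN rats on 1367679_at. ACI rat 5 was the lowest and BN rats 1, 4 and 5 were the highest, with ACI rat 1 above BN rats 2 and 3. The difference of -0.49 (SE 0.189, 95% interval -0.92 to -0.05) had an unadjusted p of 0.0319 in limma and was not called (adjusted p = 0.151).

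Neither DM gene was called, although most BN rats lay above the ACI rats on both. *RT1-DMb* (chr20:4695009-4702560) read 9.59, 9.63, 9.56, 9.30 and 8.72 in ACI and 9.47, 9.22, 9.92, 10.14 and 10.58 in BN rats on 1370882_at (difference -0.51, SE 0.288, 95% interval -1.16 to 0.15, adjusted p = 0.349). *RT1-DMa* (chr20:4708932-4712335) read 7.64, 8.04, 7.84, 7.93 and 7.55 in ACI and 7.93, 7.68, 8.21, 8.46 and 8.52 in BN rats on 1370904_at (-0.36, SE 0.178, 95% interval -0.77 to 0.05, adjusted p = 0.266). For each, BN rats 3, 4 and 5 lay above all ACI rats and BN rat 2 lay among them.

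*Ifi30* (chr16:18709570-18713635) overlapped widely between the strains. Its values on 1372070_at were 11.89, 11.71, 11.69, 11.76 and 11.40 in ACI and 12.15, 11.71, 11.77, 11.80 and 11.87 in BN rats. BN rats 2, 3, 4 and 5 fell within the ACI range, and the difference of -0.17 (SE 0.109, 95% interval -0.42 to 0.08, adjusted p = 0.416) was not called.

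**Figure D2:**
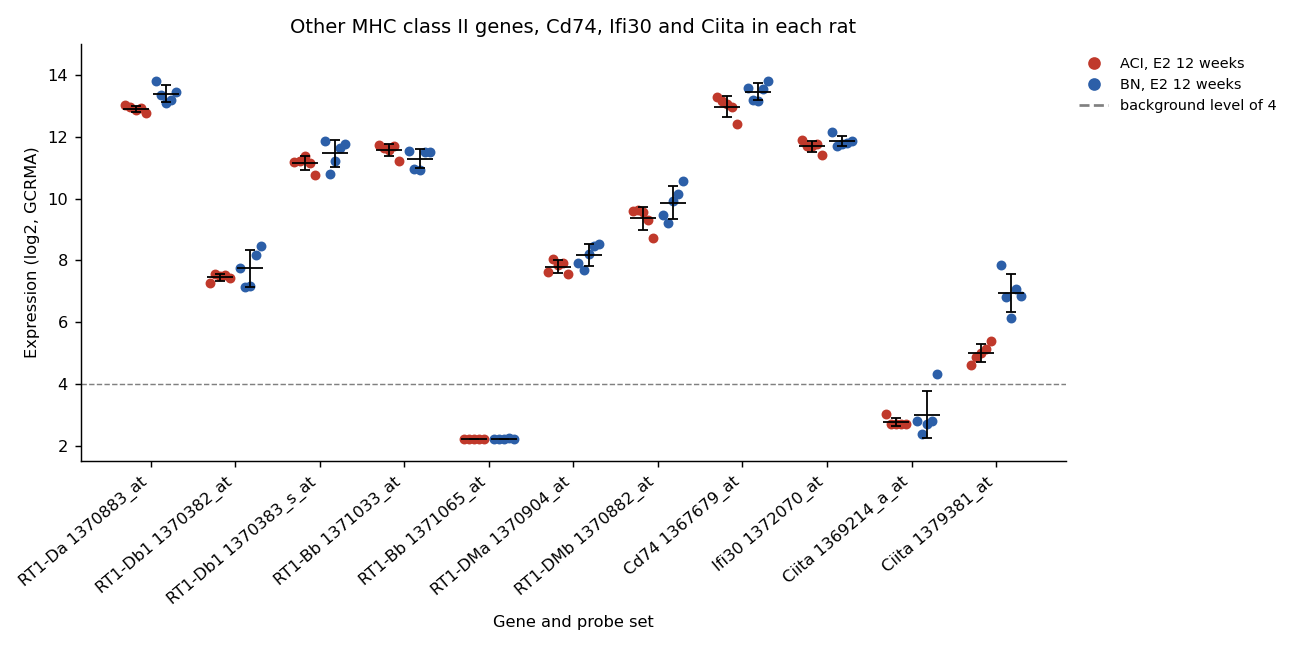
Log2 GCRMA expression (vertical axis) of the 11 probe sets of the other 8 genes (horizontal axis), with 1 point per rat, ACI in red and BN in blue, and bars for the mean and SD of 5 rats. RT1-Da 1370883_at and Ciita 1379381_at are the probe sets on which all BN rats lie above all ACI rats, and RT1-Bb 1371065_at lies at 2.23 to 2.24 in every rat.

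*Ciita* (chr10:5646854-5694393) showed the clearest strain difference outside *RT1-Ba*. On 1379381_at it read 4.63, 4.86, 5.0, 5.13 and 5.40 in ACI and 7.84, 6.82, 6.15, 7.07 and 6.86 in BN rats. The lowest BN rat, rat 3, lay above the highest ACI rat, rat 5, and expression was 3.85-fold higher in BN (difference -1.94, SE 0.293, 95% interval -2.61 to -1.27, adjusted p = 0.00353). The call was kept when each rat was left out in turn, with differences of -2.14 to -1.72. Within the 3 ACI and 3 BN rats whose animal numbers begin with S the difference was -2.11 (adjusted p = 0.0583), and within the 2 and 2 whose numbers begin with H it was -1.70 (adjusted p = 0.144).

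The other probe set of *Ciita*, 1369214_a_at, was mostly near background. It read 3.02, 2.72, 2.72, 2.72 and 2.71 in ACI and 2.79, 2.37, 2.72, 2.82 and 4.32 in BN rats. BN rat 5 was the single rat over 4, and the difference of -0.23 (SE 0.336, adjusted p = 0.766) was not called. The strain difference of *Ciita* therefore rests on 1 of its 2 probe sets.

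Counted together, 4 of the 15 probe sets were called higher in BN, 1 higher in ACI and 10 in neither direction. In 5 of the 15 the strains did not overlap. Over all 31042 probe sets, 5.87% were called higher in BN and 6.79% higher in ACI, and in 12.3% the strains did not overlap. The 4 higher in BN include the 2 probe sets of *RT1-Ba* that share a target sequence, so these 2 are not independent measurements. Of the 5 called, 3 belong to *RT1-Ba*, where the direction depended on the probe set. Without *RT1-Ba*, 2 of 11 probe sets were called higher in BN (*Ciita* and *RT1-Da*) and 0 higher in ACI. Of these 11, 3 had an unadjusted p under 0.05 (*Cd74* with the 2 called) and 10 had a lower mean in ACI, with a median difference of -0.33 against 0 over all probe sets tested. Leaving out the near-background probe sets of *RT1-Bb* and *Ciita*, 8 of 9 had a lower mean in ACI, with a median of -0.36. The share of all probe sets with a lower mean in ACI was not counted, and the directions come from the same rats. In the rats whose numbers begin with S, *RT1-Bb* 1371033_at (0.49), *Ciita* 1369214_a_at (0.19), *RT1-Db1* 1370382_at (0.10) and *RT1-DMb* (0.06) were higher in ACI. The others of the 11 were at 0 or lower in ACI. With 1 probe set per gene, the one with the highest mean, 2 of the 9 genes were called higher in BN, where 9.12% of all 14217 genes were, and 0 higher in ACI, where 8.29% were. The sizes outside *RT1-Ba* and *Ciita* were small, from -0.51 to 0.27.

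**Figure D3:**
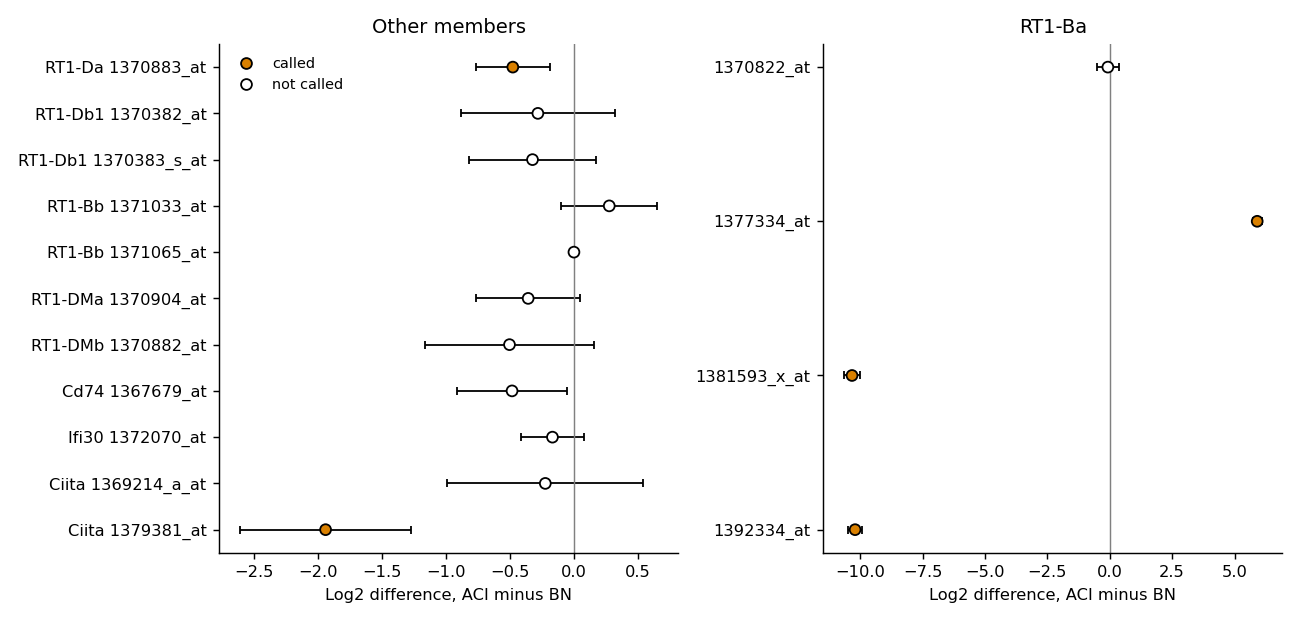
Log2 difference, ACI minus BN (horizontal axis), of each probe set with its 95% interval from limma, for the other genes on the left and RT1-Ba on the right, on different scales. Filled points were called at an adjusted p under 0.05, and the points of RT1-Ba run from -10.33 to 5.91.

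Individual rats placed themselves similarly on many of these genes. Among the 10 detected probe sets outside the 3 of *RT1-Ba* that were near background in a strain, ACI rat 5 was the lowest of its strain on 8, with a median deviation of -0.32 from the strain mean. BN rat 1 was the highest of its strain on 6, BN rat 5 on 5 and BN rats 2 and 3 the lowest on 5 each. *Ciita* was an exception in ACI rat 5, which had the highest value of its strain.

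The animal numbers in the labels begin with S or H, and what the letters stand for is not given. For *RT1-Da* the difference was -0.48 within each series. For *RT1-DMb* it was 0.06 in the S rats and -1.35 in the H rats, for *Cd74* -0.15 and -0.99, for 1370382_at of *RT1-Db1* 0.10 and -0.86, and for *RT1-DMa* -0.10 and -0.75. On *RT1-DMb*, *Cd74* and *RT1-Db1* the H rats thus gave the larger differences. The difference between series (limma interaction) had unadjusted p of 0.00764, 0.027 and 0.0144 for these 3 probe sets. The adjusted p of this interaction were 0.107, 0.202 and 0.145 in the same order. The interaction was called for 0 of the 15 probe sets and for 856 of all 31042. At so small a share, 0 calls among 15 do not set these probe sets apart from the rest of the array. The 15 include the 3 called probe sets of *RT1-Ba*, on which every rat of a strain was near background. Their difference between series is therefore not described further.

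The cells that make class II molecules constitutively differed between the glands by their markers. All 10 measured B cell markers, such as the surface antigen *Ms4a1* and the complement receptor *Cr2*, were called higher in BN, with a median difference of -3.59, and 8 of the 10 were near background in all ACI rats. The list mean was 3.06 to 3.21 in ACI and 3.45 to 8.42 in BN rats. BN rat 3, at 3.45, was close to the ACI rats and the other BN rats were at 7.40 or more. The number of B cell markers called remained 10 without BN rat 3 and was 2 when any other rat was left out.

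T cell markers had list means of 3.95 to 4.31 in ACI and 4.5 to 6.71 in BN, with 8 of 16 called higher in BN and 0 in ACI. Dendritic cell markers lay at 4.37 to 4.62 and 5.34 to 6.11, with 3 of 13 higher in BN (*Ccl17*, *Clec9a* and *Itgax*) and 1 higher in ACI (*Batf3*), and 7 near background in ACI. Macrophage markers lay at 8.61 to 9.05 and 9.39 to 10.07, with 7 of 15 higher in BN, among them *Lyz2*, *Cd163* and *Csf1r*, and 0 higher in ACI. The macrophage markers *C1qb* (1.20, adjusted p = 0.0502), *Mertk* (0.22), *C1qa* (0.11) and *Cd14* (0.09) had higher means in ACI and were not called. Of 7 plasma cell markers 3 were higher in BN and 1 in ACI. When 1 rat was left out, the counts higher in BN were 4 to 10 for T cells, 2 to 3 for dendritic cells and 5 to 9 for macrophages.

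BN rat 3, which had the lowest B and T cell list means of its strain, was also its lowest rat on *Cd74* (13.17), *RT1-Da* (13.10), *RT1-Bb* 1371033_at (10.94) and *Ciita* (6.15). Its macrophage list mean, 10.07, was the highest of all rats, and its *RT1-DMb*, 9.92, lay above all ACI rats, as did its *RT1-Da* and *Ciita*. BN rat 2, with list means of 7.40 for B cells and 5.93 for T cells, was close to it on *Cd74* (13.20) and *RT1-Bb* (10.96). On both probe sets of *RT1-Db1* and on *RT1-DMa*, *RT1-DMb* and *Ifi30*, BN rat 2 was the lowest of its strain. With the mean of the B and T cell lists as a covariate, the difference of *Ciita* was -0.94 (adjusted p = 0.311) and that of *RT1-Da* was -0.08 (adjusted p = 1). With the macrophage list mean as the covariate they were -3.06 (adjusted p = 0.112) and -0.76 (adjusted p = 0.339). Both covariates separate the strains, so neither fit divides a strain effect from a cell type effect, and the part of leukocyte content in these differences was not tested.

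**Figure D4:**
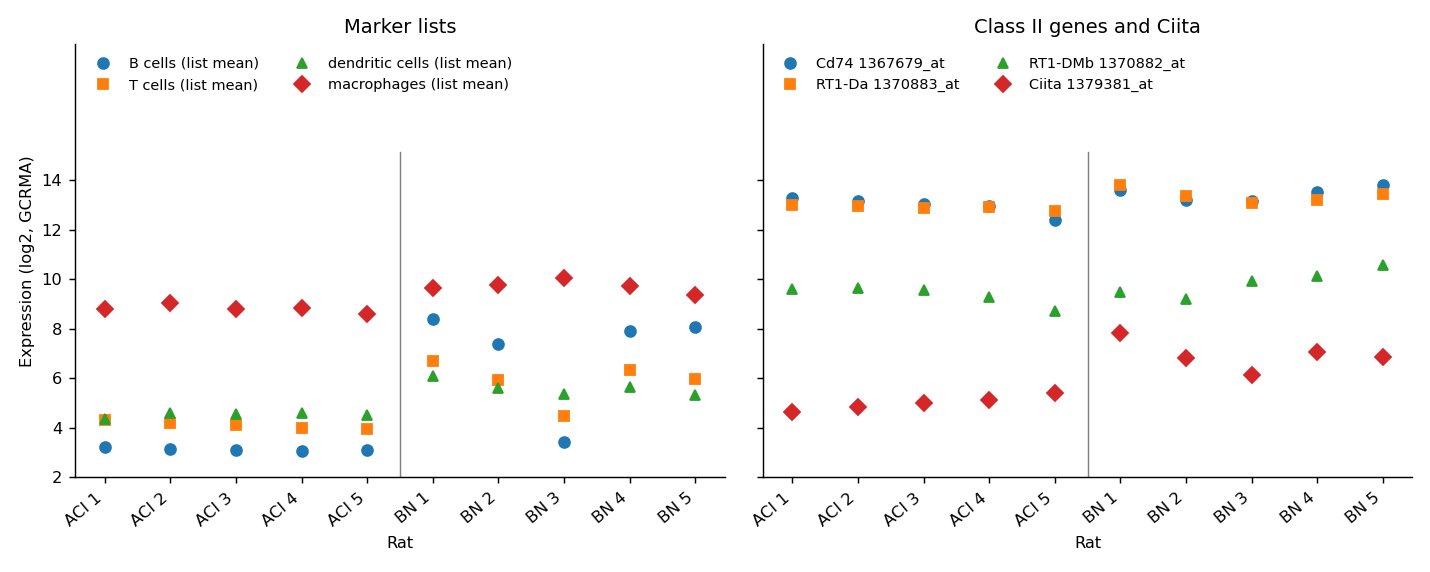
Left, mean log2 expression (vertical axis) of the B cell, T cell, dendritic cell and macrophage marker lists in each rat (horizontal axis), and right, Cd74, RT1-Da, RT1-DMb and Ciita in the same rats. BN rat 3 lies at 3.45 for B cell markers, beside the ACI rats, and at 10.07 for macrophage markers, the highest of all.

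Of other glandular cells, 4 of 12 luminal and 3 of 9 basal and myoepithelial markers were called higher in ACI and 0 in BN, 4 of 6 endothelial markers and 1 of 8 adipocyte markers (*Adipoq*) were higher in BN, and 0 of 10 skeletal muscle markers were called in limma (4 had an unadjusted p under 0.05, all with higher means in ACI). When 1 rat was left out, 2 to 4 endothelial and 0 to 3 adipocyte markers were higher in BN and 2 to 5 basal and myoepithelial markers were higher in ACI.

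Most factors that act on class II promoters were not called. Of the 8 measured, 1 was called, the RFX subunit *Rfx5* (7.63 ± 0.123 in ACI and 8.26 ± 0.323 in BN, SD, n = 5 each), higher in BN by 0.63 (difference -0.63, adjusted p = 0.0277). The list held no call when any ACI rat, BN rat 2 or BN rat 4 was left out. The other RFX subunits *Rfxap* (-0.15) and *Rfxank* (-0.13) and the NF-Y subunits *Nfya* (0.16), *Nfyb* (0.06) and *Nfyc* (0.08) were not called. Nor were *Zxdc* (-0.33) and *Creb1* (-0.27), the latter with a wide 95% interval of -1.41 to 0.87. Over all genes, 9.12% were called higher in BN. Of 6 further class II locus genes looked for, among them *RT1-DOa* and *RT1-DOb*, 0 had a probe set of their own.

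Among 11 measured genes of interferon gamma signalling and *Ciita* regulation, *Irf8*, a factor of myeloid and B cells, was higher in BN (-1.41, SE 0.236, adjusted p = 0.00582) and *Ifngr2*, a receptor chain, was higher in ACI (1.37, SE 0.0552). *Ifng* itself read 2.23 on every array. Of 12 interferon gamma-induced genes, 4 were higher in BN and 1 in ACI, with a median of -0.19. The chemokine *Cxcl11* (-2.60, adjusted p = 0.0104) and the guanylate-binding protein gene *Gbp4* (-1.76, adjusted p = 0.0198) were higher in BN, and the peptide transporter subunit *Tap1* (0.93, adjusted p = 0.0148) was higher in ACI. The count higher in BN was 2 to 5 when 1 rat was left out.

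Enzymes that cut antigens and the invariant chain in the endosome were mixed. Of 9 measured, cathepsin L (*Ctsl*, -1.11, adjusted p = 0.00343) and legumain (*Lgmn*, -1.03, adjusted p = 0.00152) were higher in BN and cathepsin H (*Ctsh*, 0.86, adjusted p = 0.00308) was higher in ACI. Cathepsin S (*Ctss*), which removes the invariant chain in antigen-presenting cells, read 11.93 ± 0.273 in ACI and 12.52 ± 0.307 in BN (SD, n = 5 each) and was not called (-0.59, adjusted p = 0.0686).

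Of 3 genes that set how long class II molecules stay on the surface, 2 were called higher in BN. The ubiquitin ligase *Marchf1*, which removes class II molecules from the surface, read 6.15 ± 0.286 in ACI and 8.60 ± 0.468 in BN (SD, n = 5 each; difference -2.45, adjusted p = 0.00048), and *Cd83*, which opposes it, read 8.26 ± 0.278 and 10.28 ± 0.609 (-2.01, adjusted p = 0.0029). The third gene of the list, *Marchf8*, was not called (-0.11). Among 7 costimulation genes 3 were higher in BN and 0 in ACI, *Cd86* (-1.79, adjusted p = 0.00103), *Icoslg* and *Cd40*, the last near background in all ACI rats and at least 4.28-fold higher in BN.

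The MHC class I pathway, which presents peptides from the cytosol, did not move together. Of 14 measured genes, the immunoproteasome subunit *Psmb8* (-0.79, adjusted p = 0.0066) and the proteasome activator *Psme1* (-0.50, adjusted p = 0.0498) were higher in BN, and the loading factor *Tapbp* (1.32, adjusted p = 0.0159) and *Tap1* were higher in ACI. The light chain *B2m* was at 14.55 in both strains, and the list median was -0.06. The values of *Psme1* overlapped between the strains, and the count higher in BN was 1 to 4 when 1 rat was left out.

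The 6 RT1 genes lie on chromosome 20, and genes beside them were compared in the same way. A window reaching 500 kb beyond their starts on either side (4015393 to 5208932 on GRCr8) held 84 other genes, of which 43 were measured. Of these 2 (4.65%) were higher in BN, *Gpsm3*, a regulator of G protein signalling in leukocytes (-2.09, SE 0.265, adjusted p = 0.00157), and *Psmb8*. Higher in ACI were 6 (14%), led by the kinesin *Kifc1* (1.42, adjusted p = 0.0209), *Tapbp* and *Vps52* (1.06, adjusted p = 0.0222, BN near background and most ACI rats under 4). The remaining 35 were not called, and the median difference was 0.00. Over all 14217 genes, 9.12% were called higher in BN and 8.29% higher in ACI. Each neighbour was taken by its probe set with the highest mean alone. By that rule *RT1-Ba* differed by -0.08, so the sizes of its 3 called probe sets are not compared with the neighbours.

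**Figure D5:**
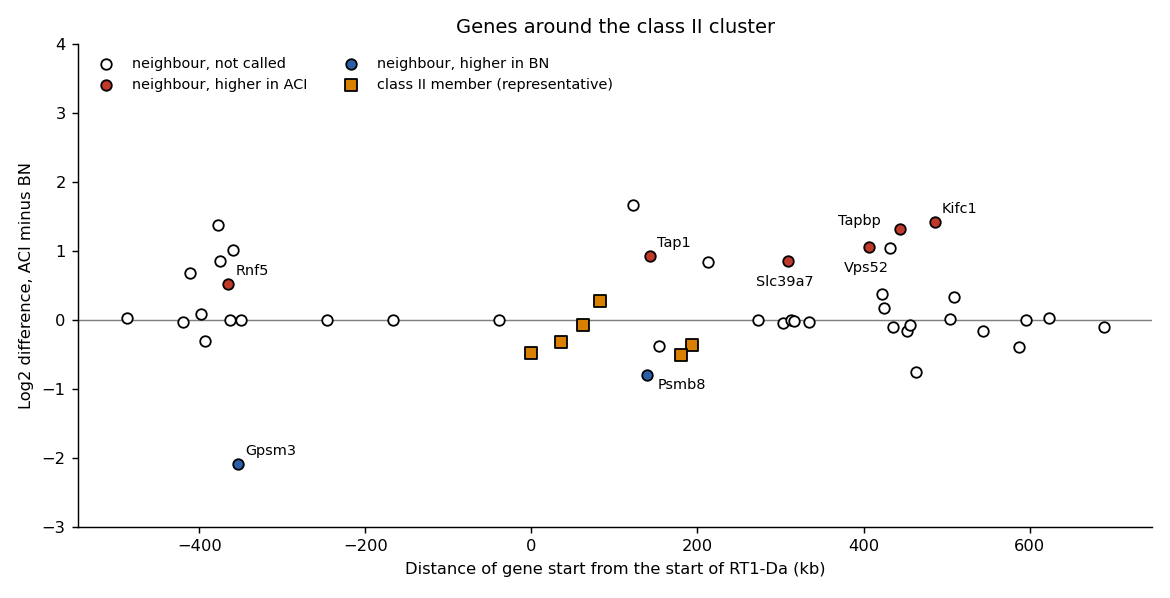
Log2 difference, ACI minus BN (vertical axis), of genes around the class II cluster by the distance of their start from that of RT1-Da in kb (horizontal axis). Orange squares are the RT1 class II genes, each by its brightest probe set (RT1-Ba at -0.08), and the 8 named neighbours were called, 6 higher in ACI and 2 in BN.

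The genes whose pattern over the 10 arrays was most like that of *Cd74* or *Ciita* were listed as a description, among 9363 genes whose mean was 4 or more. For *Cd74* these were *Lin37* (Pearson r = 0.968), *Tomm34* (0.953), *Anapc16* (0.94), *Gsn* (0.939) and *Zfand3* (0.937), and among the class II genes *RT1-DMb* came closest (0.831). For *Ciita* they were *Prkcb* (0.99), *Gmfg* (0.989), *Evi2a* (0.987), *Fyb1* (0.986) and *Ifi44l* (0.985), and *RT1-Da* was the closest class II gene (0.876). Among these genes *RT1-DMb* ranked 103 for *Cd74* and *RT1-Da* ranked 483 for *Ciita*. The arrays fall into 2 strains, so r over all of them partly restates the strain difference. With each rat taken as its deviation from the strain mean, *Tomm34* (0.984), *Lin37* (0.943), *Sharpin* (0.937), *Myh9* (0.934) and *Eif3k* (0.934) were closest to *Cd74*, and *Ifgga2l1* (0.973), *Moxd1* (0.957), *Tnfaip3* (0.956), *RGD1309362* (0.953) and *C1h9orf40* (0.951) to *Ciita*. On that scale *Cd74* and *Ciita* had an r of -0.01 with each other. With the RT1 genes, *Cd74* had an r from 0.518 for *RT1-DMa* (rank 1211) to 0.873 for *RT1-Bb* (rank 36). Its r with 1370822_at of *RT1-Ba* was 0.784.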

How the data were processed

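Total RNA of 10 mammary glands was measured on 10 arrays. Per the labels, the authors summarized probes to log2 values with GCRMA 2.18.1. The sources used here do not say whether both strains were normalized in 1 run. The deposited values were used unchanged. Of 31099 probe sets, 57 controls were left out. Genes were named from the platform annotation, updated by gene ID to RefSeq (20758 of 20826 probe sets with 1 symbol). Probe sets with several symbols (436) or none (9780) named no gene.

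Strains were compared with limma 3.58.1 (R 4.3.3) with no other term, and p-values were adjusted by Benjamini-Hochberg over 31042 probe sets. The fit was tested on simulated data. For arrays, the number of rats limits the precision. The gene list, the pathway and marker lists and the tests were chosen with earlier results of these data known. Named were all probe sets of the 9 genes and, from each pathway list, at most 2 called genes with the largest difference in each direction (3 for neighbours), and for *Cd74* and *Ciita* the 5 most like genes. Markers, *Icoslg* (called) and the genes not called that are named beside them (such as *Ctss*, *Ifng*, *B2m* and the RFX and NF-Y subunits) were chosen after their values were seen. Alternatives were blocks, normalizations, filters, tests, covariates and leaving out rats.

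The strains were deposited under separate runs of accession numbers, so deposit and strain cannot be told apart, and the BN labels describe extraction from ACI rats while giving the strain as Brown Norway. No pairing of the samples by the replicate numbers in the titles was established. Of 5 same-numbered pairs, 2 had deviations correlated over 0.1, and 0 ACI arrays correlated best with their own number. So few pairs cannot decide whether the samples were paired.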

Additional observations from a re-analysis of the deposited data

Results flagged for a closer look

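In 6 of 28 groups of 5 rats, a single rat lay far from the others by Dixon's gap test. Its nominal rate of 1 in 20 groups assumes independent, normal and continuous values. The groups share the same rats, and most of those flagged hold tied or near-background values, so the count is not read against that rate. On probe set 1370822_at of *RT1-Ba*, ACI rat 5 read 9.56, a gap of 0.86 to the next rat. On the same probe set BN rat 3 read 10.27 where the other BN rats shared a single value, a gap of 0.15. On 1377334_at of *RT1-Ba*, BN rat 5 read 3.32 among values near background, a gap of 0.28. On 1369214_a_at of *Ciita*, BN rat 5 read 4.32, a gap of 1.5, and ACI rat 1 read 3.02, a gap of 0.30 among values near background. On 1371065_at of *RT1-Bb*, BN rat 4 read 2.24, a gap of 0.01 that is the rounding step of the table.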

How the results depend on the processing

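The calls were repeated under 27 other settings, and no called difference changed direction. The 4 probe sets called higher in BN became 2 in the S rats, in the H rats, with the lymphocyte covariate and with the macrophage covariate, and 3 to 4 when 1 rat was left out. The 1 called higher in ACI became 2 with array weights (*RT1-Bb* 1371033_at, 0.45, adjusted p = 0.0459) and 0 in the H rats (1377334_at of *RT1-Ba*, 5.79, adjusted p = 0.0617) and with probe sets averaged per gene, and stayed 1 when 1 rat was left out. With the replicate number as a block, for which no pairing was established, 2 were higher in BN. In that fit *Ciita* had an adjusted p of 0.0509, *RT1-Da* of 0.086, and 1926 of all probe sets were called against 3930. *Ciita* 1379381_at was called in 22 and *RT1-Da* in 11 of the settings. On *RT1-Ba*, 1381593_x_at and 1392334_at were called in every setting that tested them (25 and 26). Probe set 1377334_at was called in 25 settings and missed in the H rats. *RT1-Da* also missed the threshold with the ID series as a block (adjusted p = 0.0513), with trend and robust (0.0736), without BN rats 4 and 5 (0.067) and in the methods' t-test after Benjamini-Hochberg (0.0524), which called 3595 of all probe sets, and 7434 unadjusted. All probe sets called numbered 100 in the H rats, 193 and 1334 with the macrophage and lymphocyte covariates, 6350 without BN rats 4 and 5, 8397 with array weights and 2598 without ACI rat 4. The cause of these changes was not tested. Median centring moved the median of all probe sets by -0.03.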
